A study of Mus musculus with 48 samples.

Results

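Cd44, Lgals3, S100a6, S100a10 and Tmsb10 were followed across all 8 groups of the study, in the order of receptor, lectin, S100 proteins and actin binder. They were chosen by name, with earlier results of these data known, and all 5 were among the 7859 genes that could be named and among the 5748 of them that passed a filter on low values. Whole kidney of 48 female BALB/c mice was measured in 8 groups of 6, each mouse on its own single-colour array. Mice received 7 daily injections and were killed on day 8. By the intravenous (iv) route the groups were 0.9% saline and vancomycin at 50, 200 and 400 mg/kg per day. By the intraperitoneal (ip) route the groups were the same 4, with their own saline group. Vancomycin is a glycopeptide antibiotic whose main toxicity at high exposure falls on the kidney.

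CD44 is a cell-surface receptor for hyaluronan, a long matrix sugar. It is abundant on leukocytes, scarce on healthy adult tubule cells and known to appear on injured tubules. Lgals3 encodes galectin 3, a lectin that binds beta-galactosides and is made by macrophages, by collecting duct cells and by damaged epithelium. S100a6 and S100a10 belong to the S100 family of small, mostly calcium-binding proteins; the S100A10 protein forms a complex with annexin A2 at the plasma membrane. Tmsb10 encodes thymosin beta 10, which binds single actin subunits and keeps them out of filaments. Each of them can come from tubule cells and from cells that enter the kidney, and in RNA of a whole organ a change in the number of cells and a change in RNA per cell cannot be told apart.

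In the table as used here the values do not stand beside their own probe set identifiers. Names were rebuilt from the position of values in 3 stretches of the table, which hold 24.39% of its rows, so each named value below holds only as far as that rebuilding does. The 5 genes come from all 3 stretches. S100a10 and Tmsb10 lie in the first, S100a6 and Lgals3 in the second and Cd44 in the third. A second named probe set of Cd44 lies in the second stretch, which gives that gene 2 measurements named through different offsets. Lgals3 and S100a6 have 1 probe set on the array, whereas 3 are listed for S100a10 and 5 for Tmsb10, of which 1 each was named. With identifiers taken as listed, Cd44 read -0.79 (log2) at iv 400 mg/kg and -1.11 at ip 400 mg/kg against saline, opposite to the values below, S100a10 read 0.27 and 0.39 and was not called, and S100a6 gave no value.

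All levels are log2 of the deposited GCRMA intensity. GCRMA is a background correction and normalization for this type of array. The median of the whole table was 3.47 on this scale, and values under it were not told from background. Array medians ran from 3.34 to 3.55 in the iv arrays and from 3.47 to 3.68 in the ip arrays. The 90th percentiles ran from 8.28 to 8.75 in the iv arrays and from 9.07 to 9.23 in the ip arrays, without overlap. Levels set side by side across routes below include that difference. Precision here is limited by how many arrays there are. The kidney label was checked against marker lists: group means of 14 of 14 proximal tubule, 10 of 10 loop and distal tubule and 9 of 9 collecting duct genes lay above that median in both saline groups, as did those of 7 of 8 podocyte genes in iv saline and 8 of 8 in ip saline. The labels do not name a batch, and differences between the routes cannot be told apart from differences between the 2 sets of arrays.

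The 250 bases before the transcription start are shown for 3 of the genes, a receptor, an S100 gene and a lectin, each with a single start window in the table used, so that the letters searched for motifs can be seen. They are RefSeq sequences on GRCm38.p6, read 5′ to 3′ on the strand of the gene. That of Cd44 is chr2:102901666-102901915 on the minus strand, that of S100a6 is chr3:90612644-90612893 on the plus strand and that of Lgals3 is chr14:47373610-47373859 on the plus strand. Capitals mark the reverse complement of the GC box.
Cd44: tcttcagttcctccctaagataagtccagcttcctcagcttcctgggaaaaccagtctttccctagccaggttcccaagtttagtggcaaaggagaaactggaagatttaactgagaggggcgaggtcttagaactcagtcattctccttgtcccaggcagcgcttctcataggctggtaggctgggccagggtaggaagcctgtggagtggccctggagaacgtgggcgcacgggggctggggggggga
S100a6: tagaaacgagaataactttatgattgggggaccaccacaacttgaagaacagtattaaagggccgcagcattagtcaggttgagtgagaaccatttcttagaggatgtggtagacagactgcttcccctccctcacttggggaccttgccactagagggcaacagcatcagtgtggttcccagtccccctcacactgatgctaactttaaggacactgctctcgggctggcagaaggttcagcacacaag
Lgals3: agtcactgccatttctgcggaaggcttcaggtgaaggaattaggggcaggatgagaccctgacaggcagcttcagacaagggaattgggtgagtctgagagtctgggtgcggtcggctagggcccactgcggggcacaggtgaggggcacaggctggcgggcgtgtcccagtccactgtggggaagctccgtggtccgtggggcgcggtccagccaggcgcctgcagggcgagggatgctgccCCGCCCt
A set of 6 motifs were searched on both strands, and their shares are over the same 250 bases of 32851 start windows. The AP-1 motif (TGANTCA, in 6.75% of all windows), the TEAD motif (GGAATG, 12.6%), the STAT motif (TTCNNNGAA, 7.02%), the TATA box (TATAAA, 12.4%) and the E-box (CACGTG, 6.02%) were found in none of the windows of Cd44, S100a6, Lgals3 and Tmsb10. The GC box (GGGCGG, in 32.7% of all windows) was found at -7 to -2 in Lgals3, counted from the start, and in each of the 3 start windows of Tmsb10. These letters were not in the windows of Cd44 and S100a6. A window was matched for 4 of the 5 genes; S100a10 is named only. Only the letters given were searched, so other forms of a motif, such as a TATA box with other letters, were not counted. A match or its absence is a description of these letters and was not tested for binding.

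At 400 mg/kg all 5 genes were higher than in the saline mice of the same route, by iv and by ip. In neither route did the 6 treated mice overlap the 6 saline mice for any of them. The share of all genes without such overlap was not counted, so this is not shown to be particular to the 5 genes. Of all genes, 30.7% were called higher at iv 400 and 36.3% at ip 400 mg/kg. In either direction 49.7% and 61.3% were called. At 200 mg/kg all 5 were called higher by iv and none was called by ip. The iv 200 mg/kg calls of Cd44, S100a6 and S100a10 were lost in a fit of the compared groups alone. At 50 mg/kg none was called by either route. The size of the difference varied widely among them. S100a10 rose least, by 2.67-fold by iv and 2.21-fold by ip at 400 mg/kg. The fitted difference was largest for Cd44, but its size rests on saline levels under the table's median. With 16 added to each intensity before the log, the log2 difference at iv 400 mg/kg was 3.56 for Cd44, 3.86 for S100a6 and 3.51 for Tmsb10, and at ip 400 mg/kg it was 5.21 for Cd44 and 4.90 for S100a6.

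**Figure D1:**
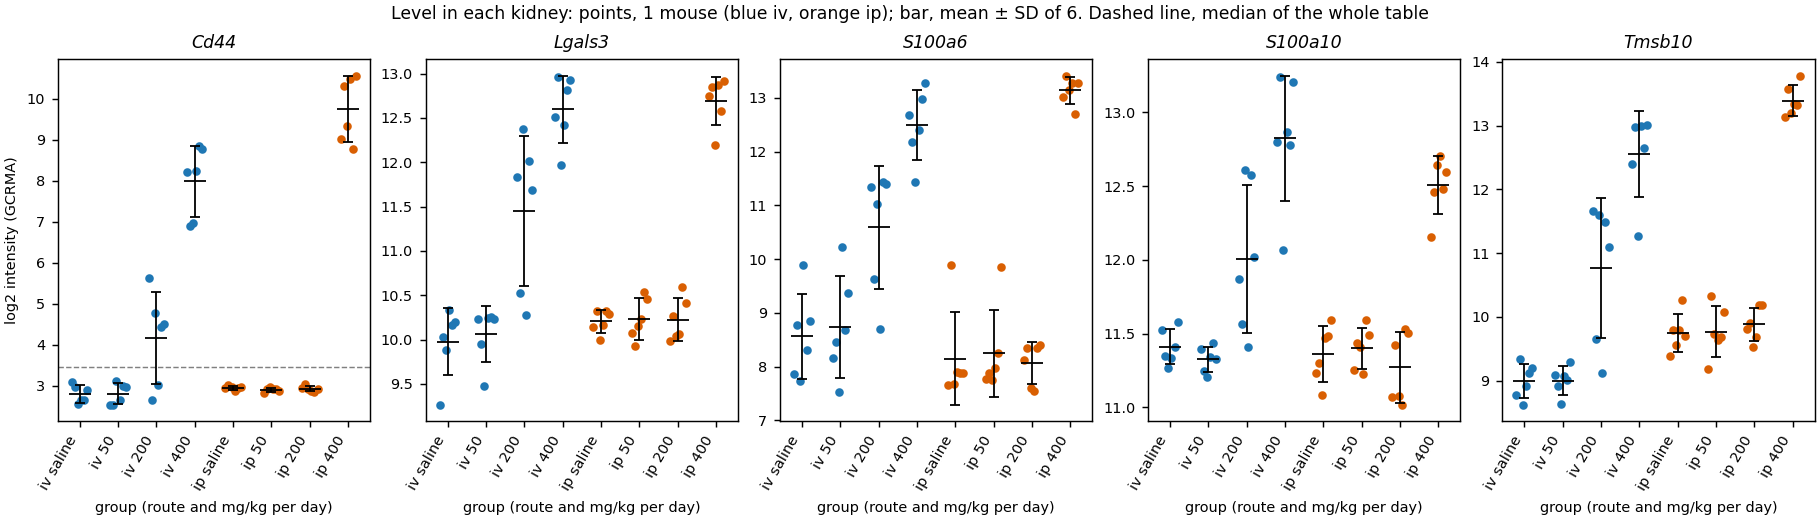
Log2 intensity of each gene (vertical axes, each on its own scale) in each of 48 kidneys by group (horizontal axes, route and dose); points are mice, blue for iv and orange for ip, bars are the mean ± SD of 6 and the dashed line is the table's median of 3.47. All mice at 400 mg/kg lie above all saline mice of their route, and the iv 200 mg/kg group is spread between the 2 levels.

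Cd44, the hyaluronan receptor, was under the table's median in every mouse of 5 groups. In iv saline the lowest, median and highest log2 levels were 2.55, 2.77 and 3.09, and the iv 50 mg/kg mice had 2.54, 2.81 and 3.11. The ip saline mice had 2.88, 2.96 and 3.03, the ip 50 mg/kg mice 2.82, 2.92 and 2.96, and the ip 200 mg/kg mice 2.85, 2.92 and 3.03. These 30 mice all lay close together. In the iv 200 mg/kg mice the levels were 2.65, 4.47 and 5.62, with 4 of 6 mice above that median. The iv 400 mg/kg mice had 6.89, 8.22 and 8.85, and the ip 400 mg/kg mice 8.76, 9.82 and 10.57, and all 12 mice were above it. The ip 400 mg/kg group had the highest mean, 9.75 ± 0.80 (SD, n = 6), then iv 400 mg/kg with 7.98 ± 0.87, then iv 200 mg/kg with 4.17 ± 1.12. The iv 400 and iv 200 mg/kg mice did not overlap, the ip 400 and iv 400 mg/kg mice did, and the 5 lower groups could not be put in order.

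The differences of Cd44 from iv saline (log2, ± SE) were 0.00 ± 0.33 at 50, 1.37 ± 0.33 at 200 and 5.18 ± 0.33 at 400 mg/kg, with limma adjusted p = 1.00, 0.0049 and 1.5e-16. From ip saline they were -0.05 ± 0.33, -0.03 ± 0.33 and 6.79 ± 0.33, with adjusted p = 1.00, 1.00 and 5.8e-21. Cd44 passed the filter on low values through the iv 200, iv 400 and ip 400 mg/kg groups alone, so it had to differ between groups. With 16 added before the log, the iv 200 mg/kg difference became 0.65 (adjusted p = 0.11).

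The other named Cd44 probe set gave a like course. Its means were 2.36 ± 0.11 in iv saline, 2.12 ± 0.15 at iv 50, 3.79 ± 1.16 at iv 200 and 7.42 ± 1.04 at iv 400 mg/kg (SD, n = 6). By ip they were 2.15 ± 0.03 in saline, 2.09 ± 0.09 at 50, 2.14 ± 0.02 at 200 and 9.26 ± 0.77 at 400 mg/kg. The differences from saline were 1.44 ± 0.34 (SE, adjusted p = 0.0048) at iv 200, 5.07 ± 0.34 (1.8e-15) for iv 400 and 7.11 ± 0.34 (6.4e-21) at ip 400 mg/kg. Both probe sets thus put all mice of both 400 mg/kg groups above all saline mice. Of the iv 200 mg/kg group, mice 26 and 28 were the lowest on both probe sets.

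Lgals3, the galectin 3 gene, was well above background in all 48 mice. In iv saline its lowest, median and highest log2 levels were 9.26, 10.09 and 10.33, and at iv 50 mg/kg 9.47, 10.23 and 10.26. The higher iv doses gave 10.28, 11.76 and 12.38 at 200 mg/kg and 11.97, 12.66 and 12.96 at 400 mg/kg. In 5 of the 6 iv 200 mg/kg mice Lgals3 was above the highest iv saline mouse, and all 6 were above the highest iv 50 mg/kg mouse. By ip the levels were 9.99, 10.23 and 10.32 in saline, 9.92, 10.19 and 10.54 at 50, 9.98, 10.16 and 10.60 at 200, and 12.20, 12.80 and 12.91 at 400 mg/kg. By mean the order was 12.69 ± 0.27 (ip 400) and 12.60 ± 0.38 (iv 400), then 11.45 ± 0.85 (iv 200), then 9.98 to 10.23 in the 5 other groups. The 2 groups at 400 mg/kg overlapped, and so did the 5 lowest. The iv 200 mg/kg mice overlapped both, reaching 12.38 against a lowest iv 400 mg/kg mouse of 11.97 and going down to 10.28 against a highest ip 50 mg/kg mouse of 10.54. Against saline Lgals3 differed by 1.48 ± 0.22 (SE, adjusted p = 1.2e-05) at iv 200, 2.62 ± 0.22 (3.4e-13) at iv 400 and 2.49 ± 0.22 (4.4e-13) at ip 400 mg/kg.

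S100a6, which encodes calcyclin, was the gene of the 5 that varied most between saline mice. In iv saline its lowest, median and highest log2 levels were 7.73, 8.54 and 9.89, with 7.54, 8.57 and 10.22 in the iv 50 mg/kg mice. Those of ip saline were 7.66, 7.88 and 9.89, where mouse 62 stood at 9.89 and the next mouse at 7.90. At ip 50 mg/kg they were 7.76, 7.93 and 9.86, where mouse 72 stood at 9.86 and the next at 8.26. The ip 200 mg/kg group, at 7.55, 8.24 and 8.40, held no such mouse. The iv 200 mg/kg mice had 8.70, 11.18 and 11.43, and 4 of 6 mice were above the highest iv saline mouse. The iv 400 mg/kg mice had 11.42, 12.53 and 13.28, and the ip 400 mg/kg mice 12.71, 13.21 and 13.41. By mean the order was ip 400 (13.14 ± 0.25, SD, n = 6), iv 400 (12.49 ± 0.65) and iv 200 mg/kg (10.59 ± 1.15), each overlapping the next, with the 5 other groups between 8.06 and 8.74 and not to be put in order. The differences from saline were 2.02 ± 0.43 (SE, adjusted p = 0.0015) at iv 200, 3.92 ± 0.43 (2.3e-10) at iv 400 and 4.99 ± 0.43 (1.1e-13) at ip 400 mg/kg.

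S100a10, whose protein partners annexin A2, showed the smallest differences of the 5 at 400 mg/kg. In iv saline its lowest, median and highest log2 levels were 11.27, 11.38 and 11.58, and at iv 50 mg/kg 11.21, 11.34 and 11.44. The higher iv doses gave 11.41, 11.94 and 12.61 at 200 mg/kg and 12.06, 12.83 and 13.24 at 400 mg/kg. By ip they were 11.08, 11.38 and 11.59 in saline, 11.23, 11.42 and 11.59 at 50, 11.02, 11.25 and 11.53 at 200, and 12.16, 12.54 and 12.70 at 400 mg/kg. It was the gene of the 5 whose highest mean was in an iv group, with 12.83 ± 0.42 at iv 400 and 12.51 ± 0.19 at ip 400 mg/kg (SD, n = 6), and these 2 groups overlapped. The differences from saline were 0.60 ± 0.15 (SE, adjusted p = 0.0099) at iv 200, 1.41 ± 0.15 (2.4e-10) at iv 400 and 1.15 ± 0.15 (1.5e-08) at ip 400 mg/kg.

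Tmsb10, the thymosin beta 10 gene, was higher in ip saline than in iv saline. Of all genes 57.7% were called between these groups in either direction. With arrays centred on their medians, or after quantile normalization, Tmsb10 was not called there. In iv saline its lowest, median and highest log2 levels were 8.62, 9.01 and 9.34, and in ip saline they were 9.39, 9.75 and 10.27, with no overlap. The iv mice had 8.63, 9.05 and 9.30 at 50, 9.12, 11.29 and 11.65 at 200, and 11.26, 12.81 and 13.02 at 400 mg/kg. At ip 50 mg/kg the levels were 9.18, 9.70 and 10.33, at ip 200 mg/kg 9.53, 9.86 and 10.18, and at ip 400 mg/kg 13.13, 13.33 and 13.78. The ip 400 mg/kg mice lay above all iv 400 mg/kg mice in level, which cannot be told apart from a difference between the 2 sets of arrays. By mean the order was ip 400 (13.39 ± 0.25, SD, n = 6), iv 400 (12.55 ± 0.68) and iv 200 mg/kg (10.77 ± 1.10), then the 3 other ip groups (9.75 to 9.88), which overlapped each other, and last iv 50 mg/kg and iv saline (9.00 and 8.99), which overlapped too. Against the saline of the same route the differences were 1.77 ± 0.29 (SE, adjusted p = 3.7e-05) at iv 200, 3.56 ± 0.29 (9.5e-14) at iv 400 and 3.64 ± 0.29 (8.4e-15) at ip 400 mg/kg.

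**Figure D2:**
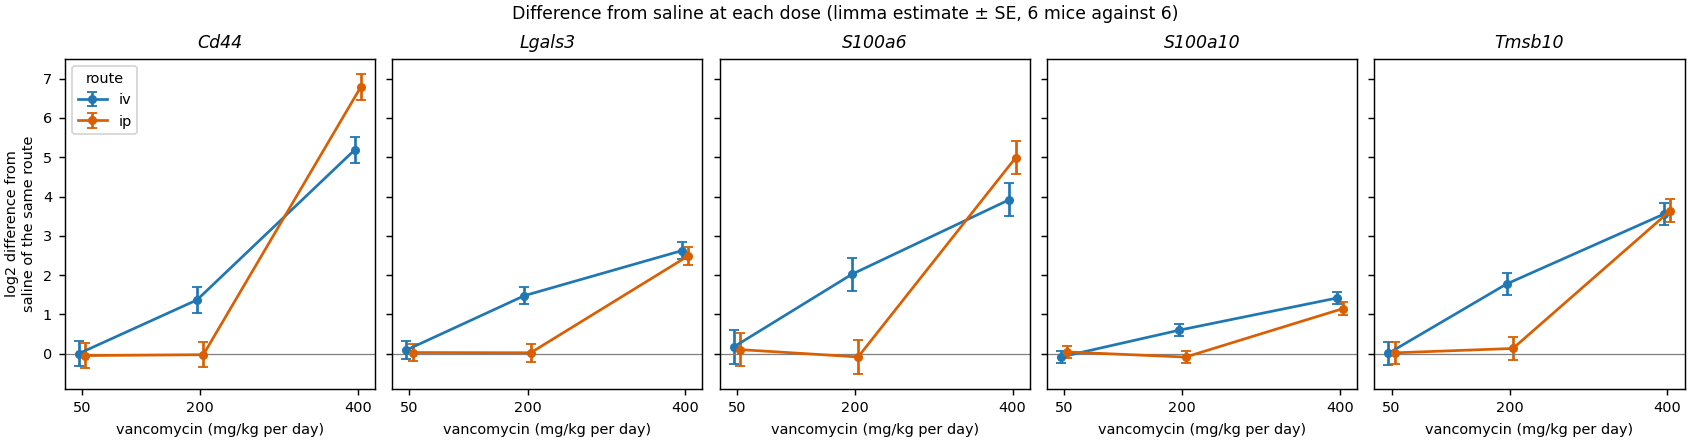
Log2 difference from the saline group of the same route (vertical axis) at 50, 200 and 400 mg/kg per day (horizontal axis) for each gene; points are limma estimates from 6 mice against 6, bars are ± 1 SE, blue is iv and orange is ip. By iv each gene rose at 200 and further at 400 mg/kg, and by ip each stayed near 0 at 200 and rose at 400 mg/kg.

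These calls were read against the share of all genes called in the same direction. The 5 genes were chosen with earlier results of these data known, and Cd44 had to differ between groups to pass the filter. The counts are therefore a description. By iv, 5 of the 5 genes were called higher than saline at 400 mg/kg, where 30.7% of the 5748 genes were, and 5 of 5 at 200 mg/kg, where 6.07% were. By ip, 5 of 5 were called higher than saline at 400 mg/kg against 36.3% of all genes. Against the dose below, 5 of 5 were higher at iv 200 than at iv 50 mg/kg (6.32% of all genes), at iv 400 than at iv 200 mg/kg (17.8%) and at ip 400 than at ip 200 mg/kg (35.2%). The step from iv 200 to iv 400 mg/kg was 3.82 ± 0.33 for Cd44, 1.15 ± 0.22 for Lgals3, 1.90 ± 0.43 for S100a6, 0.82 ± 0.15 for S100a10 and 1.78 ± 0.29 for Tmsb10 (log2, SE), with adjusted p from 1.7e-11 to 0.00048. Over all genes the median difference was 0.09 at iv 400 and 0.11 at ip 400 mg/kg.

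The calls at iv 200 mg/kg depended on the fit. Fitted from the compared groups alone, Cd44, S100a6 and S100a10 were no longer called there (adjusted p = 0.10, 0.059 and 0.12), while the genes called in all fell from 423 to 76. S100a10 was also lost without mouse 27 (0.48, adjusted p = 0.054), without mouse 29 (0.48, adjusted p = 0.056) and without the iv array of highest median in each iv group (0.50, adjusted p = 0.060).

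At the lower doses none of the 5 was called. At iv 50 mg/kg 0.539% of all genes were called in either direction, at ip 50 mg/kg 0.0870%, at ip 200 mg/kg 0.0870%, and between ip 200 and ip 50 mg/kg 0% (46 genes at an unadjusted limma p under 0.05). The differences of the 5 genes from saline at ip 200 mg/kg ran from -0.09 to 0.13 (log2). Their 95% intervals were -0.68 to 0.63 for Cd44, -0.43 to 0.47 for Lgals3, -0.95 to 0.78 for S100a6, -0.40 to 0.22 for S100a10 and -0.45 to 0.71 for Tmsb10. For each gene the upper bound lay below its estimate at iv 200 mg/kg. That estimate has an error of its own, so this is no test of a difference between routes. At iv 50 mg/kg the differences ran from -0.09 to 0.17, and at ip 50 mg/kg from -0.05 to 0.10. At these doses the intervals reached at most 1.03 above saline, for S100a6 at iv 50 mg/kg.

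The difference between routes was tested itself, as the ip effect minus the iv effect against each route's own saline. At 200 mg/kg, where 0.974% of all genes were called in either direction, the effect by ip was smaller by 1.45 ± 0.32 (log2, SE; adjusted p = 0.012) for Lgals3 and by 1.64 ± 0.41 (adjusted p = 0.033) for Tmsb10. For Cd44 it was -1.40 ± 0.46 (adjusted p = 0.14), for S100a6 -2.10 ± 0.60 (0.073) and for S100a10 -0.69 ± 0.22 (0.12), which did not pass. Leaving out iv mouse 26 gave -1.70 (0.022), -2.30 (0.035) and -0.77 (0.045) for these 3, and leaving out iv mouse 28 gave -1.63 (0.032), -2.48 (0.0067) and -0.81 (0.021). S100a6 also passed without iv saline mouse 4 (-2.37, 0.046). The call of Tmsb10 was lost without any one of 12 mice, with values from -1.65 to -1.47 and adjusted p up to 0.091: iv saline mouse 3, iv 200 mg/kg mice 25, 27, 29 and 30, ip saline mice 62, 64 and 65 and ip 200 mg/kg mice 85 to 88. It was also lost without the filter (0.055), in a fit of the 4 groups alone (0.071) and without the iv array of highest median in each iv group (0.10). That of Lgals3 was lost in a fit of the 4 groups alone (0.058) and without those 4 arrays (-1.13, 0.052). With array weights Cd44, S100a6 and S100a10 passed (adjusted p = 0.00034, 0.0043 and 0.00092).

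At 400 mg/kg 4.31% of all genes differed between routes in either direction. The effect on Cd44 was larger by ip, by 1.61 ± 0.46 (log2, SE; adjusted p = 0.035), and on the other probe set by 2.04 ± 0.48 (adjusted p = 0.0082). The other 4 genes did not pass: -0.13 for Lgals3 (95% interval -0.77 to 0.50), 1.07 for S100a6 (-0.15 to 2.29), -0.27 for S100a10 (-0.71 to 0.17) and 0.09 for Tmsb10 (-0.73 to 0.90). The interval of S100a6 holds the difference seen in Cd44. The Cd44 call was lost after quantile normalization (1.18, adjusted p = 0.15), in a fit of the 4 groups alone (0.077), without the iv array of highest median in each iv group (1.33) and without any one of 10 mice, where values ran from 1.39 to 1.61 and adjusted p from 0.050 to 0.086: iv saline mice 2 and 6, iv 400 mg/kg mice 44 and 45, ip saline mice 63, 64 and 66 and ip 400 mg/kg mice 104, 106 and 108. At 50 mg/kg, where 0.191% of all genes were called, none of the 5 differed between routes, with values from -0.07 to 0.13.

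Between the saline groups, 57.7% of all genes were called in either direction, and the median over all genes was 0.41 higher in ip. Of the 5, Tmsb10 was called, 0.76 ± 0.29 higher in ip saline (log2, SE; adjusted p = 0.022). It was lost with each array centred on its median (0.59, adjusted p = 0.094), after quantile normalization (0.26, adjusted p = 0.56), without iv saline mouse 3 (0.68, 0.050) and without ip saline mouse 65 (0.65, 0.061). The other 4 lay below the median shift of 0.41, at 0.15 for Cd44, 0.23 for Lgals3, -0.42 for S100a6 and -0.05 for S100a10. After quantile normalization S100a10 was lower in ip saline (-0.46, adjusted p = 0.022).

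In the iv 200 mg/kg group the 5 genes put the same 2 mice lowest. Among iv 200 mg/kg mice, 26 and 28 were the 2 lowest for all 5 genes, and mouse 28 was the lowest for 4 of them. Against the iv saline mean, mouse 28 differed by 0.21 for Cd44, 0.30 for Lgals3, 0.14 for S100a6, -0.00 for S100a10 and 0.13 for Tmsb10, and so lay near saline for each. Mouse 26 differed by -0.15, 0.55, 1.05, 0.16 and 0.65 in the same order. In the other 4 mice the differences ran from 1.64 to 2.82 for Cd44, from 1.71 to 2.40 for Lgals3, from 2.46 to 2.87 for S100a6, from 0.46 to 1.20 for S100a10 and from 2.09 to 2.66 for Tmsb10. At iv 400 mg/kg mouse 45 was among the 2 lowest for all 5 genes and the lowest for 4, and mouse 48 was among the 2 highest for all 5. The order was not the same throughout: mouse 44 was the lowest of that group for Cd44 (6.89) and the highest for Lgals3 (12.96) and S100a10 (13.24). The Tmsb10 level of mouse 45, at 11.26, stood apart from the next mouse at 12.40. No label tells these mice apart from the rest of their groups, so they are described singly and no test was made.

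**Figure D3:**
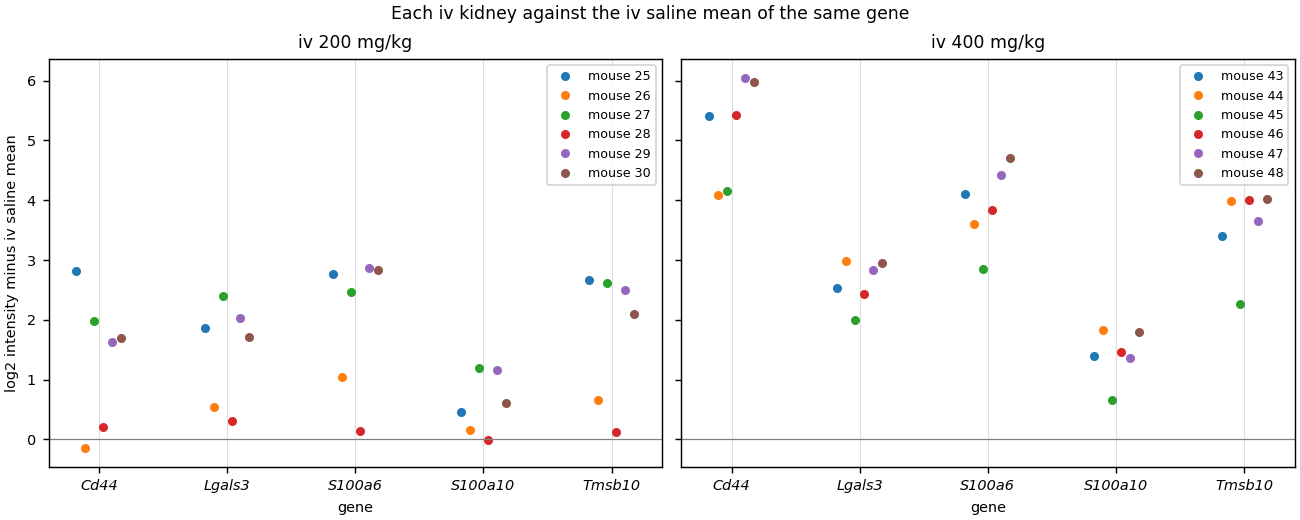
Log2 intensity of each gene minus its iv saline mean (vertical axis) for the 6 mice given iv 200 mg/kg (left) and the 6 given iv 400 mg/kg (right), by gene (horizontal axis), with 1 colour per mouse in each panel. Mice 26 and 28 are the 2 lowest of the left panel for each gene, and mouse 45 is the lowest of the right panel for 4 of 5 genes.

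Markers of other cells moved in the same mice. Of 20 tested genes of the macrophage and myeloid list, 19 rose at iv 400 and 20 at ip 400 mg/kg, where 30.7% and 36.3% of all genes did. The median log2 differences were 3.06 and 4.27. At iv 200 mg/kg 13 of these genes rose, where 6.07% of all genes did, and at ip 200 mg/kg none. Their summed intensity ran from 780.9 to 921.9 in iv saline mice, from 993.9 to 4843 at iv 200 and from 6204 to 16720 at iv 400 mg/kg. It ran from 767.8 to 1389 in ip saline mice, from 997.1 to 1428 at ip 200 and from 13980 to 32590 at ip 400 mg/kg. Within the iv 200 mg/kg group it was 993.9 in mouse 28 and 1216 in mouse 26, against 2731 to 4843 in the other 4 mice. The part of these cells in the levels of the 5 genes was not tested. Defining markers Itgam, Fcgr1, Cybb and Spi1 had group means under the table's median in both saline groups and above it at ip 400 mg/kg. Of the 22 named genes of the list, 13 had group means above that median in iv saline and 12 in ip saline. The others could pass the filter through the groups where they were high, so their rises were partly fixed by the filter.

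Other lists gave the following values in the same comparisons. Of 18 tubular injury genes 17 rose at iv 400 and 18 at ip 400 mg/kg, where 30.7% and 36.3% of all genes rose. Their summed intensity at iv 200 mg/kg was 5516 in mouse 28 and 10900 in mouse 26, against 26790 to 45870 in the other 4. All 14 proximal tubule genes fell at 400 mg/kg by both routes, where 19.0% of all genes fell by iv and 25.1% by ip, with medians of -1.85 and -2.79. Their sum at iv 200 mg/kg was 71630 in mouse 28 and 75090 in mouse 26, against 35520 to 49480. Of 12 fibroblast genes 11 rose at iv 400 and 12 at ip 400 mg/kg, and their sums ran from 376.6 to 858.7 in iv saline, 2258 to 6299 at iv 400, 448.5 to 820.4 in ip saline and 5154 to 9649 at ip 400 mg/kg. Of 10 loop and distal tubule genes 9 fell at iv 400 and 10 at ip 400 mg/kg, and of 9 collecting duct genes 7 and 6 fell. Of 8 podocyte genes 3 rose at iv 400 mg/kg, and 4 rose and 1 fell at ip 400 mg/kg. All 10 cell cycle genes rose at 400 mg/kg by both routes. Group means of 4 of these 10 lay above the table's median in each saline group. Of 13 named fibroblast genes 9 did in iv saline and 8 in ip saline, and of 19 named tubular injury genes 16 and 14. The others of these lists could pass the filter through the groups where they were high, so their rises were partly fixed by the filter. Of 11 endothelial genes none rose and 2 fell at iv 400 mg/kg, and 1 rose and 2 fell at ip 400 mg/kg. With so few genes, the podocyte rises and the endothelial falls lie near the shares over all genes. Of the lymphocyte and neutrophil lists few genes passed the filter: 2 of 10 named T and NK cell genes, 1 of 7 B and plasma cell genes and 1 of 4 neutrophil genes. Of the 2 tested T and NK cell genes 1 rose at iv 400 mg/kg, and 1 rose and 1 fell at ip 400 mg/kg. The tested B and plasma cell gene rose by 1.31 (log2) at iv 400 and by 2.51 at ip 400 mg/kg. The tested neutrophil gene did not pass at iv 400 mg/kg (0.42) and rose by 1.27 at ip 400 mg/kg. The T cell markers Cd3d and Cd3e and the B cell marker Cd79a had group means under the table's median in all 8 groups. None of these lists holds any of the 5 genes. The part of these cells in the results was not tested either.

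Relatives of the 5 genes were counted in 5 lists, beside the 30.7% of all genes that rose and the 19.0% that fell at iv 400 mg/kg, and the 36.3% and 25.1% at ip 400 mg/kg. At iv 200 mg/kg 6.07% rose. In the S100 family 6 of 8 named genes were tested: 5 rose at iv 400 mg/kg, and 5 rose and 1 fell at ip 400 mg/kg, with medians of 1.07 and 0.87. Beside S100a6 and S100a10, S100a4, known from fibroblasts and leukocytes, rose by 1.85 ± 0.24 (log2, SE) by iv and 2.44 ± 0.24 by ip. S100a16 rose by 0.55 ± 0.12 and 0.59 ± 0.12, and S100a13 by 0.74 ± 0.12 and 0.58 ± 0.12. S100a1, best known from muscle, stood at 0.01 ± 0.13 by iv (adjusted p = 0.94) and fell by 0.29 ± 0.13 by ip (adjusted p = 0.045), a call that was lost without any one of ip saline mice 63 to 66 or ip 400 mg/kg mice 103, 104 and 108 (-0.29 to -0.24, adjusted p up to 0.11). At iv 200 mg/kg 4 of the 6 rose, namely S100a6, S100a10, S100a4 and S100a13, and at ip 200 mg/kg none.

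Counting Lgals3, 3 of 6 tested galectins rose at iv 400 mg/kg, and 2 rose and 2 fell at ip 400 mg/kg, with medians of 0.28 and 0.10. With 6 genes these counts lie near the shares over all genes. Lgals9, a galectin of immune cells, rose by 1.59 ± 0.24 by iv and by 1.90 ± 0.24 by ip (log2, SE). Lgals2 fell by 0.37 ± 0.12 (adjusted p = 0.0074) and Lgalsl fell by 0.30 ± 0.13 (adjusted p = 0.040) at ip 400 mg/kg, where the differences of Lgals8 and Lgals12 were 0.16 and 0.03 and did not pass. The third galectin called at iv 400 mg/kg, Lgals8 (0.39 ± 0.14, adjusted p = 0.017), was lost when arrays were centred on their medians (0.34, adjusted p = 0.070), without iv saline mouse 1 (0.26, 0.098) and without iv 400 mg/kg mouse 46 (0.34, 0.051). The fall of Lgalsl was lost without any one of ip saline mice 61, 62, 64, 65 and 66 or ip 400 mg/kg mice 103 to 107 (-0.31 to -0.26, adjusted p up to 0.091).

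Annexins, calcium-dependent membrane-binding proteins that pair with S100 proteins, had 3 tested genes of 4 named. Anxa5 rose by 1.39 ± 0.14 by iv and 1.47 ± 0.14 by ip, and Anxa4 by 0.80 ± 0.14 and 0.94 ± 0.14 (log2, SE). Anxa8 rose by 2.07 ± 0.38 by ip, from a saline mean of 2.68 under the table's median, and stood at 0.44 ± 0.38 (adjusted p = 0.35) by iv. It could pass the filter through the mice where it was high, so its rise was partly fixed by the filter. Anxa2, the partner of S100a10, was not among the named genes and was not analysed here.

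Of 10 tested genes for hyaluronan and CD44 partners 8 rose at iv 400 and 8 at ip 400 mg/kg, with medians of 1.72 and 2.10, and without Cd44 7 of 9 at each. Itih1, which encodes a heavy chain that is linked to hyaluronan, lost its call by ip with arrays centred on their medians and with quantile normalization. Vcan, which encodes the hyaluronan-binding matrix proteoglycan versican, rose by 2.03 ± 0.23 by iv and 3.89 ± 0.23 by ip (log2, SE). Mmp14, a membrane-bound protease that cleaves CD44, rose by 2.10 ± 0.30 and 3.13 ± 0.30. Hmmr, a hyaluronan-binding protein of dividing cells, rose by 2.21 ± 0.44 and 2.74 ± 0.44. The saline means of Vcan and Hmmr lay under the table's median, as did that of Mmp14 in ip saline. The sizes of Vcan and Hmmr, and that of Mmp14 by ip, are therefore approximate. Vcan and Hmmr, like Cd44, could pass the filter through the groups where they were high, so their rises were partly fixed by it. Tnfaip6 (0.17 by iv, -0.10 by ip) and Habp4 (-0.08 by iv, 0.01 by ip) did not pass by either route, though Tnfaip6 did by iv without iv saline mouse 1 (0.30, adjusted p = 0.032).

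Of 22 tested thymosin and actin-binding genes 19 rose at iv 400 and 20 at ip 400 mg/kg, none fell, and the medians were 0.92 and 1.02, against 3.56 and 3.64 for Tmsb10. With arrays centred on their medians 17 rose by iv and 15 by ip: the calls of Actr3 and Arpc4 were lost by iv, and those of Arpc4, Capza2, Coro1c, Dstn and Wdr1 by ip. Quantile normalization left 19 and 19, without Coro1c by ip. Tagln, which encodes transgelin of smooth muscle, rose by 2.48 ± 0.29 by iv and 3.12 ± 0.29 by ip (log2, SE). Flna, the actin crosslinker filamin A, rose by 2.44 ± 0.25 and 2.79 ± 0.25, and Actn1, the crosslinker alpha-actinin 1, by 1.84 ± 0.29 and 2.55 ± 0.29. The saline means of Actn1 lay under the table's median in both routes, so its sizes are approximate. Actn1 could pass the filter through the groups where it was high, so its rises were partly fixed by the filter. The 2 smallest differences at ip 400 mg/kg were those of Actn4 (0.07 ± 0.16), the actinin of podocytes, and Cfl2 (0.17 ± 0.12), a cofilin, and neither passed. At iv 200 mg/kg 8 of the 22 rose, and at ip 200 mg/kg none.

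**Figure D4:**
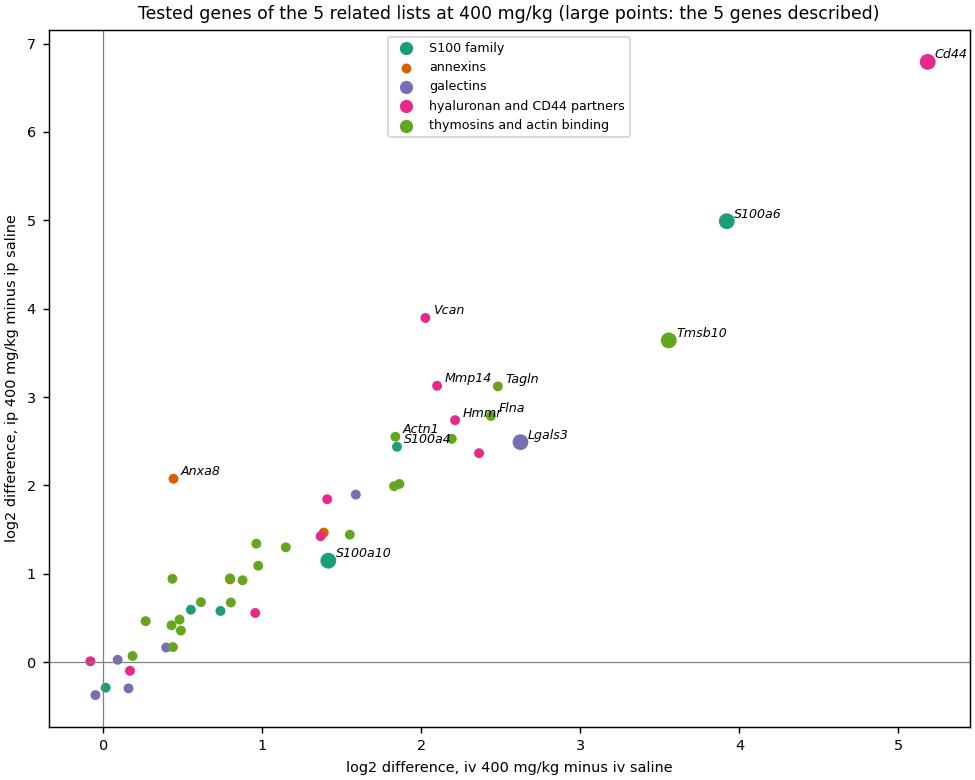
Log2 difference from saline at iv 400 mg/kg (horizontal axis) and at ip 400 mg/kg (vertical axis) for each tested gene of the 5 related lists, coloured by list; large points are Cd44, Lgals3, S100a6, S100a10 and Tmsb10. Cd44 lies at 5.18 and 6.79, S100a6 at 3.92 and 4.99, and S100a10, at 1.41 and 1.15, lies among its relatives.

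Likeness of course was measured over all 5748 genes as the root mean square distance between the 6 differences of each dose from saline (log2). Nearest to Cd44 were Slc34a2, a phosphate transporter (0.38), Socs3, an inhibitor of cytokine signalling (0.48), and the chemokine Ccl9 (0.49). Nearest to Lgals3 were the collagen gene Col8a1 (0.072), Pdlim7 (0.14) and the class II antigen gene H2-Ab1 (0.19). Nearest to S100a6 were the retinoic acid enzyme Aldh1a2 (0.20), Smpdl3b (0.24) and the cyclin Ccna2 (0.24), and to S100a10 Skap2 (0.087), Syt12 (0.087) and Tax1bp3 (0.11). Nearest to Tmsb10 were the copper carrier Cp (0.18), Cdca5 (0.19) and Cks1b (0.20), the last 2 genes of cell division. The 3 comparisons of each route share their saline mice, so the distances are a description. Among the 5 genes the closest pair was S100a6 and Tmsb10 (0.59) and the most distant was Cd44 and S100a10 (2.79). In each case genes outside the 5 lay closer than any of the 5 did to each other.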

How the data were processed

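Whole-kidney RNA of 48 mice was measured on single-colour arrays, 1 mouse per array, and grouped by route and dose per the labels. Mice share no numbers between groups, so they were treated as unpaired. The deposited values of 45101 probe sets are linear intensities; per the submitters' processing notes GCRMA was used. The version of that tool is not given in the sources used here, nor is the set of arrays it was run on. The deposited intensities were converted to log2 without an offset.

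The values do not follow the identifiers beside them. A gene was named from row offsets in 3 stretches of the table (rows 751 to 3250, offset 64; 5001 to 11750, offset -47; 34251 to 36000, offset -16168), and other rows stayed unnamed. In these stretches levels of same-gene probe sets correlated at 0.494 over 2927 pairs when named so and at 0.142 over 3132 pairs as listed, a description over pairs that share genes. Symbols came from the platform annotation, updated by Entrez number for 34754 of 34958 probe sets with 1 symbol.

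Probe sets were kept where 6 or more arrays exceeded the table's median on the log2 scale, and the named row with the highest mean stood for its gene. All 8 groups were fitted together with limma 3.58.1 in R 4.3.3 (lmFit and contrasts.fit, then eBayes with trend; 40 residual degrees of freedom), two-sided, with Benjamini-Hochberg adjustment over 5748 genes and a threshold of 0.05. The test was tried on simulated data.

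The 5 genes and all gene lists were chosen with earlier results of these data known. From each of the S100, annexin, galectin, hyaluronan and actin lists the text names up to 4 called genes with the largest and up to 2 with the smallest absolute difference at ip 400 mg/kg, and for each of the 5 genes the 3 nearest genes by course. Anxa2 and the cell type markers named for being under or above the table's median stand outside this rule. Alternatives changed scaling, filter, offset, array weights, the groups fitted, the eBayes trend, the probe set rule, the identifiers and the mice left out. Leaving out the iv array of highest median in each iv group (mice 1, 9, 27 and 44) was chosen after the data were seen. An iv 50 mg/kg title gives the mouse as 78, between 7 and 9, and was kept so.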

Additional observations from a re-analysis of the deposited data

Results flagged for a closer look

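In 3 of 40 sets of 6 values, 1 gene in 1 group, a mouse stood further from its group than chance gives in about 1 set in 20, or 2 of 40, so the count is near that of chance. S100a6 was at 9.89 in mouse 62 of ip saline, where the nearest mouse was at 7.90, and at 9.86 in mouse 72 of ip 50 mg/kg, where the nearest was at 8.26. Without mouse 62 the rise of S100a6 at ip 400 mg/kg kept its call. Tmsb10 was at 11.26 in mouse 45 of iv 400 mg/kg, where the nearest was at 12.40, and the same mouse was the lowest of its group for Lgals3, S100a6 and S100a10.

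The effects of a dose differed between routes for 3 genes. At 200 mg/kg the ip effect less the iv effect was -1.45 (log2) for Lgals3 and -1.64 for Tmsb10, and at 400 mg/kg it was 1.61 for Cd44. These differences passed the limma test of the interaction, and each was lost under at least 2 of the alternatives.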

How the results depend on the processing

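All 210 values of the 5 genes at 400 mg/kg against saline or 200 mg/kg kept direction and call under every alternative other than the identifiers as listed. Over all alternatives and comparisons, identifiers as listed included, 710 of 753 values did. With identifiers as listed, Cd44 turned to -0.79 by iv and -1.11 by ip at 400 mg/kg and S100a10 fell to 0.27 and 0.39 without a call; Lgals3 and Tmsb10 kept their direction and call. The cause was not tested in what follows, beyond each alternative's own construction.

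With 16 added before the log, Cd44 lost its call at iv 200 mg/kg against saline (0.65) and against 50 mg/kg (0.65). With only the compared groups fitted, calls were lost at iv 200 mg/kg against saline for Cd44 (1.37), S100a6 (2.02) and S100a10 (0.60), against 50 mg/kg for Cd44 (1.37), Lgals3 (1.39), S100a6 (1.85) and S100a10 (0.68), and in the route difference for Lgals3 (-1.45) and Tmsb10 (-1.64) at 200 and Cd44 (1.61) at 400 mg/kg. Without the 4 iv arrays of highest median they were lost for S100a10 against saline (0.50) and S100a6 against 50 mg/kg (1.52) at iv 200 mg/kg, and in the route difference for Lgals3 (-1.13) and Tmsb10 (-1.43) at 200 and Cd44 (1.33) at 400 mg/kg. Array weights brought calls to the 200 mg/kg route difference of Cd44 (-1.59), S100a6 (-2.26) and S100a10 (-0.79). Without the filter Tmsb10 lost that call (-1.64). Quantile normalization ended the Cd44 route difference at 400 mg/kg (1.18) and the Tmsb10 saline difference (0.26), as median centring did for the latter (0.59), and called S100a10 between saline groups (-0.46).

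Leaving out each mouse in turn gave 0.48 to 0.72 for S100a10 at iv 200 mg/kg, 0.65 to 0.83 for Tmsb10 between saline groups, -1.70 to -1.11 for Cd44, -2.48 to -1.76 for S100a6, -0.81 to -0.56 for S100a10 and -1.97 to -1.47 for Tmsb10 in the 200 mg/kg route difference, and 1.39 to 1.81 for Cd44 in that at 400 mg/kg, each with calls gained or lost.

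Counts of genes called moved more. Array weights gave 90 at iv 50, 1398 at iv 200 (423 otherwise), 816 for iv 200 against 50, 13 at ip 50, 18 at ip 200, and 51, 714 and 643 for the route differences at 50, 200 and 400 mg/kg. Only the compared groups gave 76 at iv 200, 72 for iv 200 against 50, 0 at ip 50 and 76 for the route difference at 400 mg/kg. Without the 4 arrays there were 250, 225 and, for the 200 mg/kg route difference, 24. Quantile normalization gave 3 at ip 50, 3 at ip 200 and 1344 between saline groups, where median centring gave 2138. No filter gave 31 for the 200 mg/kg route difference, and 16 added before the log gave 373 for that at 400 mg/kg. Leaving out a mouse gave 271 to 590 at iv 200, 231 to 595 for iv 200 against 50, 1 to 6 at ip 50, 3 to 7 at ip 200, 19 to 179 and 148 to 530 for the route differences at 200 and 400 mg/kg.

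The share of calls that were rises moved by over 10 points with quantile normalization: from 82.5% to 66.6% at iv 200, from 91.9% to 80.4% for iv 200 against 50, from 95.5% to 46.6% between saline groups, from 32.1% to 48.5% and from 68.1% to 48.4% for the route differences at 200 and 400 mg/kg, and with median centring from 58.1% to 47.7% for ip 400 against 200 mg/kg and from 32.1% to 43.5% for the 200 mg/kg route difference. At ip 50 mg/kg, with 5 genes called, it moved from 60% to 100% with quantile normalization (3 called) and 75% with centring (4 called).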
